A study of Rattus norvegicus with 8 samples.

Results

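The genes described here encode the nuclear-encoded subunits of the mitochondrial respiratory chain and of the ATP synthase in rat liver, together with genes that share their symbol prefixes. Members were all genes of the array whose single symbol starts with Nduf, Uqcr, Cox4, Cox5, Cox6, Cox7, Cox8 or Atp5, or is Sdha, Sdhb, Sdhc, Sdhd, Cyc1 or Cycs. This rule, which uses no measured value, found 102 of the 18166 genes with a single-symbol probe set. They comprised 68 subunits (32 of complex I, 4 of complex II, 8 of complex III, cytochrome c itself, 10 of complex IV and 13 of complex V), 7 isoforms used mainly in other tissues or conditions, 8 assembly factors of complex I, 2 regulators and 17 copies or pseudogenes. Of these members, 82 had a mean log2 level of at least 5 over the arrays and were tested, 67 of them subunits.

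Liver of male Sprague-Dawley rats was profiled on 8 Affymetrix arrays, 1 for each combination of time, diet and treatment. Tissue had been taken 24 h after partial hepatectomy (PHx), the surgical removal of 70% of the liver, and at the operation (0 h). The rats had been fed ethanol chronically or a carbohydrate control diet by pair-feeding, and had received AM21, a locked nucleic acid oligonucleotide antisense to the microRNA miR-21, or were untreated. AM21 was given at 7.5 mg/kg into the peritoneum, first 72 h before PHx and again right after it, so the 0 h livers of the AM21 rats had received 1 of the doses. The 24 h arrays are ethanol-fed with AM21, ethanol-fed untreated, pair-fed with AM21 and pair-fed untreated, and the 0 h arrays are the same 4 groups. Each array holds RNA pooled from 3 rats (AM21) or 4 rats (untreated), and by the animal identifiers the same rats gave both times, so the 8 arrays are 4 matched pairs of pools. The spread between single rats was not measured. No sham-operated group and no control oligonucleotide group was analysed here. The AM21 rats and the untreated rats carry separate ranges of identifiers, so treatment and cohort cannot be told apart.

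The respiratory chain sits in the inner mitochondrial membrane. Complexes I and II pass electrons from NADH and succinate to coenzyme Q, complex III passes them on to the small soluble carrier cytochrome c, complex IV hands them to oxygen, and complex V, the ATP synthase, uses the resulting proton gradient to make ATP. Hepatocytes are rich in mitochondria and need this ATP for glucose, urea and lipid metabolism and, after PHx, for regrowth. A handful of subunits is encoded by mitochondrial DNA, while all genes of the rule are nuclear, and their promoters are known for binding sites of NRF1 (a factor described on the rat cytochrome c promoter), GABP (an ETS family factor) and YY1.

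Promoters of 4 members whose level changed after PHx are shown as examples that carry these motifs: Cycs and Ndufaf5, which rose, Ndufaf8, which rose too, and Sdha, which fell and whose promoter holds the same NRF1 motif as that of Cycs. Each runs from 250 bases before to 50 bases after the annotated start, 5′ to 3′, in build GRCr8 of RefSeq, with motif matches in capitals.
Cycs, chr4:80984718-80985017, minus strand: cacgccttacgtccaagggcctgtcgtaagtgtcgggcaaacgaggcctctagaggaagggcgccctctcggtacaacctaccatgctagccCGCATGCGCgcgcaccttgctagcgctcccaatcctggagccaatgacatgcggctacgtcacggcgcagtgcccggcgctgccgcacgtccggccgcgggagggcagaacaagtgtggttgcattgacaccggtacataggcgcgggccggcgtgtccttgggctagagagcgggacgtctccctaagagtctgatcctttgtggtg
Ndufaf5, chr3:147961362-147961661, plus strand: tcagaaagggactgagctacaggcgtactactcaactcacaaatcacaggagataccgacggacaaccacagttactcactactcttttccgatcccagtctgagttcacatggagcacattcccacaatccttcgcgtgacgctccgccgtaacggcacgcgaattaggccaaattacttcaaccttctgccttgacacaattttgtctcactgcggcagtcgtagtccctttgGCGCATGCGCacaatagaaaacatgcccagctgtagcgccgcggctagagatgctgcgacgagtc
Sdha, chr1:30764303-30764602, plus strand: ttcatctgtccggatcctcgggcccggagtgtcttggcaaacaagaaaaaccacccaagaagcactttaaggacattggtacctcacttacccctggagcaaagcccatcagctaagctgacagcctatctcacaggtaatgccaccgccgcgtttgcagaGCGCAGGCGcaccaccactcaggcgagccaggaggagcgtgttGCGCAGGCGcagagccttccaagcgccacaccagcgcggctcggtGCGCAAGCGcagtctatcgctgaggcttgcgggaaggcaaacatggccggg
Ndufaf8, chr10:105879658-105879957, plus strand: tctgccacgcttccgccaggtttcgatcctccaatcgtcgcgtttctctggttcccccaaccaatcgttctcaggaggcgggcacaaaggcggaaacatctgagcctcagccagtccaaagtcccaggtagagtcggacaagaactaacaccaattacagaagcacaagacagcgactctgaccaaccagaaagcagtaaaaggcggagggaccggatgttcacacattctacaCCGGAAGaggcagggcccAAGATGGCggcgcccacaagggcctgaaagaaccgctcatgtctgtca
The capitals in Cycs, Ndufaf5 and Sdha mark the NRF1 core CGCNTGCGC on either strand, and those in Ndufaf8 mark the GABP core CCGGAAG followed by the YY1 core AAGATGGC. The Cycs match began 158 bases before the start, the Ndufaf5 promoter had overlapping matches on both strands 15 and 14 bases before it, and the Sdha promoter had 3 matches, 89, 46 and 1 base before it. In Ndufaf8 the GABP match lay 16 bases before the start and the YY1 match just after it. Promoters of this length were found for 82 of the 102 members, 60 of them subunits. The NRF1 core was present in 26.7% of the subunit promoters, against 14.3% of those of all tested genes and 6.26% of all 27457 promoters in the table. The GABP core was in 31.7% of the subunit promoters, against 19.9% and 9.22% of the same sets, and the YY1 core in 23.3%, against 6.18% and 3.44%. Of the 7 members that rose after PHx, Cyc1 was not matched to a promoter. Among the 6 promoters of the others, 2 held the NRF1 core (33.3%), 2 the GABP core (33.3%) and 1 the YY1 core (16.7%). Of these, Atp5mk, not printed, also holds the GABP core, while Atp5if1 and Ndufaf7 hold none of the 3 motifs. These matches are descriptions of the letters and show no binding.

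The label of the tissue was checked against marker genes. The mean log2 level of 6 hepatocyte markers lay between 11.95 and 11.99 on the 24 h arrays and between 11.93 and 11.95 on the 0 h arrays, and none of the 6 passed the test for PHx, diet or AM21. Of the 7 isoforms of other tissues, among them the heart and muscle forms Cox6a2 and Cox8b and the hypoxia-linked Cox4i2 and Ndufa4l2, none reached a mean level of 5. Their levels of 1.65 to 4.78 are not shown to be above background, and the 5 heart and skeletal muscle markers averaged 3.69 to 3.85 at 24 h and 3.61 to 3.94 at 0 h. The 12 copies that stayed below that level, with Atp5pd, a stalk subunit of complex V at 4.80, were likewise not tested. Cox7a1, Cox7a2 and Atp5f1c had no single-symbol probe set, and 8 probe sets that name a member together with another gene were left out of the fits.

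The first comparison asked how these genes changed within a day of PHx. The subunits were steady: 3 of the 67 tested rose (Cycs, Cyc1 and Atp5mk), 2 fell (Sdha and Uqcrb) and 62 did not pass the test. Of the other tested members, 3 of 8 complex I assembly factors rose (Ndufaf5, Ndufaf7 and Ndufaf8), as did Atp5if1, the inhibitor of the ATP synthase, and 0 fell. Over all 8690 tested genes, 15.3% were higher and 12.8% were lower at 24 h than at 0 h by the same test (limma with the pool as a block, Benjamini-Hochberg adjusted p under 0.05). The median change of the subunits was 0.02 log2 units, against 0.01 over all tested genes. Without sham-operated rats, PHx cannot be told apart from the effects of surgery and of the elapsed time, and in bulk tissue fewer cells of a type cannot be told apart from less RNA per cell.

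**Figure D1:**
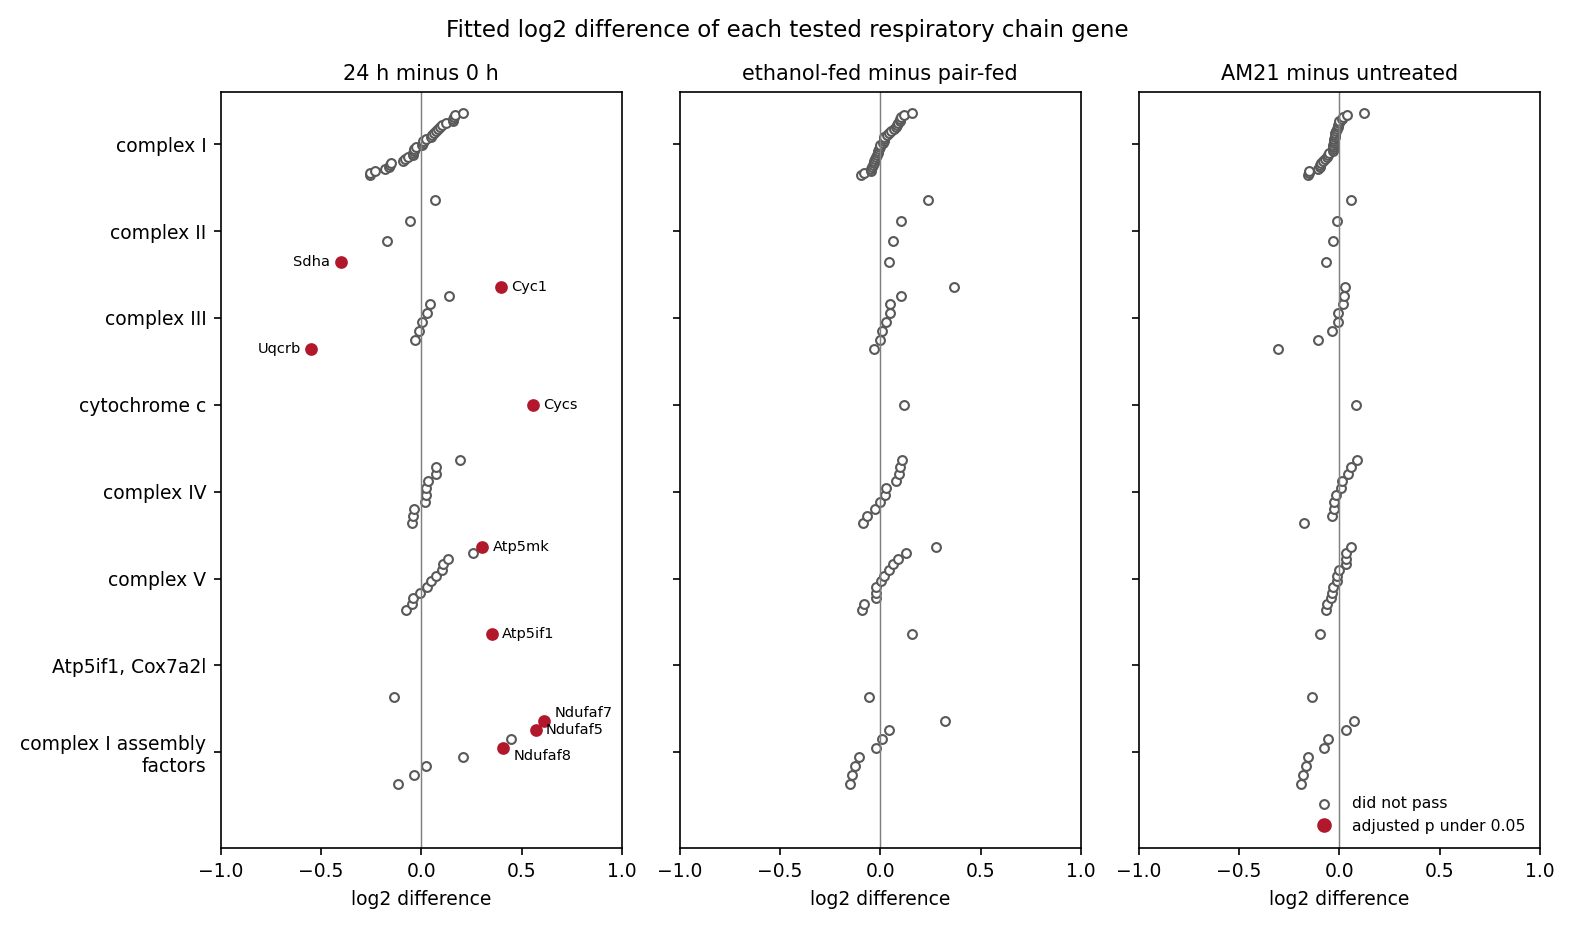
Fitted log2 difference (horizontal axis) of each tested member other than the 5 tested copies, 1 circle per gene, in rows by complex. The panels are 24 h minus 0 h, ethanol-fed minus pair-fed and AM21 minus untreated. Filled red circles passed the test at an adjusted p under 0.05. The height of a circle within its row only orders the genes. The 9 filled circles are all in the PHx panel, and most subunits lie close to 0 in all 3 panels.

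Cycs encodes cytochrome c, the carrier between complexes III and IV, which also triggers apoptosis when it leaves the mitochondrion. Its log2 level at 24 h was 9.83 in ethanol-fed AM21, 9.70 in ethanol-fed untreated, 9.75 in pair-fed AM21 and 9.90 in pair-fed untreated livers, against 9.52, 9.26, 9.14 and 9.04 in the same pools at 0 h. Every 24 h array lay above every 0 h array, and the rise was 0.56 ± 0.11 (moderated SE of the limma fit to 4 pairs, 1.47-fold, adjusted p = 0.014). A second, dimmer Cycs probe set was higher at 24 h in all 4 pools as well, by 0.12, 0.70, 0.71 and 0.42. The rat genome holds copies of the cytochrome c gene, and probe sets of such genes can share signal.

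Cyc1 encodes cytochrome c1, the haem subunit of complex III from which cytochrome c takes its electrons. It stood at 9.60, 9.70, 9.58 and 9.77 at 24 h in ethanol-fed AM21, ethanol-fed untreated, pair-fed AM21 and pair-fed untreated livers, against 9.41, 9.35, 9.26 and 9.04 at 0 h in the same order. The times did not overlap, and the rise of 0.40 ± 0.11 (adjusted p = 0.038) ranged between 0.19 in the ethanol-fed AM21 pool and 0.73 in the pair-fed untreated pool. The neighbouring core subunits of complex III did not pass: Uqcrc1 differed by 0.03, Uqcrc2 by -0.01 and Uqcrfs1, the Rieske iron-sulfur protein, by -0.03.

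Atp5mk, a small membrane subunit of the ATP synthase, had levels of 10.77, 10.87, 10.72 and 10.78 at 24 h, against 10.49, 10.45, 10.48 and 10.51 at 0 h, in the order of pools used for Cyc1. Its 24 h levels were all higher than its 0 h levels, by 0.30 ± 0.08 (adjusted p = 0.036). A second Atp5mk probe set was higher in all 4 pools by 0.05 to 0.41, and with both probe sets averaged the call was lost (adjusted p = 0.076). The catalytic subunits Atp5f1a and Atp5f1b of the same enzyme differed by -0.07 and -0.04 and did not pass. Over the 12 tested subunits of complex V the differences ran from -0.07 to 0.30 with a median of 0.06.

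Atp5if1 encodes the inhibitory factor that stops the ATP synthase from running backwards and consuming ATP. Its levels were 9.06, 9.24, 9.03 and 9.04 at 24 h, against 8.84, 8.84, 8.47 and 8.82 at 0 h, with no overlap between times. The rise was 0.35 ± 0.10 (adjusted p = 0.036). Cox7a2l, which helps to join complexes III and IV into supercomplexes, differed by -0.14 and did not pass (adjusted p = 0.30).

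Ndufaf5, Ndufaf7 and Ndufaf8 are not subunits but help to build complex I. In human cells NDUFAF5 hydroxylates an arginine of the core subunit NDUFS7, NDUFAF8 is its partner, and NDUFAF7 is a protein arginine methyltransferase. Ndufaf5 had levels of 6.95, 7.26, 7.11 and 7.21 at 24 h, against 6.47, 6.72, 6.53 and 6.53 at 0 h, a rise of 0.57 ± 0.08 (adjusted p = 0.0047). Ndufaf7 had 6.40, 6.37, 6.12 and 6.07 at 24 h, against 5.69, 5.92, 5.67 and 5.23 at 0 h, a rise of 0.61 ± 0.10 (adjusted p = 0.0073). For both genes every 24 h array was above every 0 h array, and the changes in the 4 pools kept between 0.45 and 0.85.

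Ndufaf8 stood at 7.75, 7.76, 8.04 and 7.83 at 24 h, against 7.35, 7.48, 7.49 and 7.42 at 0 h. The times again did not overlap, with a rise of 0.41 ± 0.09 (adjusted p = 0.016). Ndufaf4, an early assembly factor, differed by 0.45 ± 0.17 and did not pass (adjusted p = 0.092): it was higher at 24 h by 0.86, 0.69 and 0.40 in ethanol-fed AM21, ethanol-fed untreated and pair-fed untreated livers, and lower by 0.15 in pair-fed AM21 livers. Ndufaf1, Ndufaf2, Ndufaf3 and Ndufaf6 differed by -0.12, -0.04, 0.03 and 0.21 and did not pass. The median over the 8 assembly factors was 0.31, and their mean levels ran over 5.93 to 7.64, with a median of 7.09 against 6.71 over all tested genes.

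**Figure D2:**
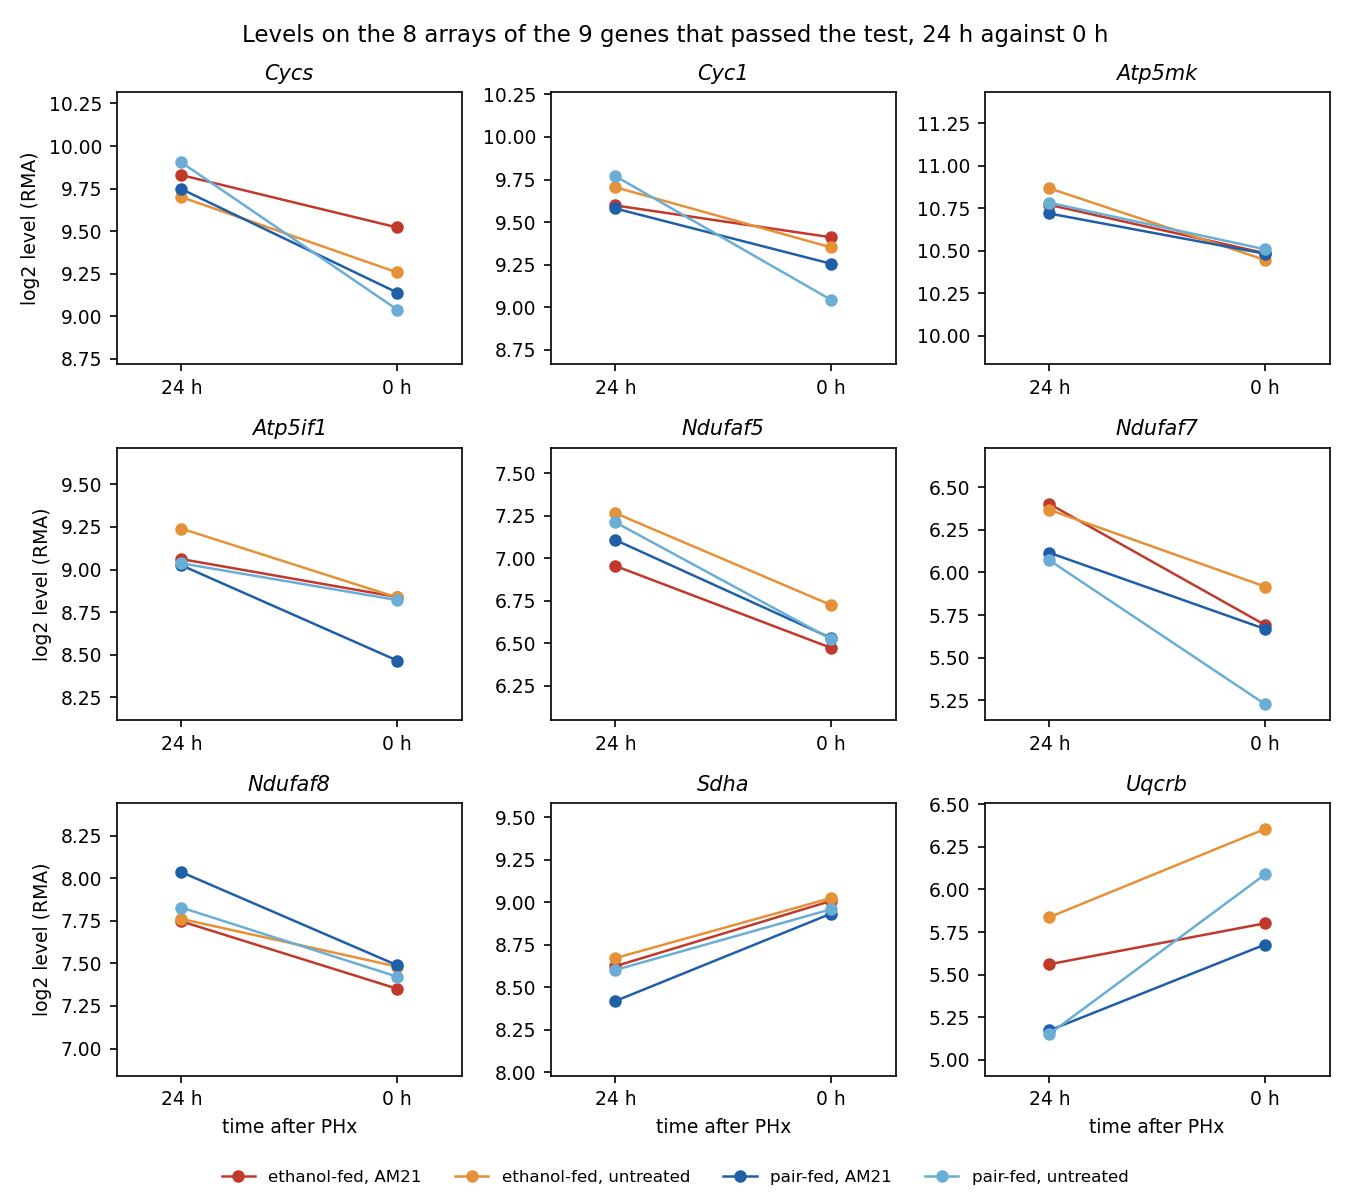
Log2 level (vertical axis, RMA) at 24 h (left) and 0 h (right) of the 9 genes that passed the PHx test, with 1 point per array and a line joining the 2 arrays of a pool. The vertical axes of all panels span the same range of log2 units. For 8 genes all 4 points at 24 h lie on one side of those at 0 h, while those of Uqcrb overlap.

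Sdha encodes the flavoprotein of succinate dehydrogenase, the enzyme that is both complex II and a step of the citric acid cycle. It had log2 levels of 8.62, 8.67, 8.42 and 8.60 at 24 h in ethanol-fed AM21, ethanol-fed untreated, pair-fed AM21 and pair-fed untreated livers, against 9.01, 9.02, 8.93 and 8.96 at 0 h. All 24 h levels lay below all 0 h levels, and the fall was even over the pools (-0.38, -0.35, -0.51 and -0.36; fitted -0.40 ± 0.08, adjusted p = 0.014). Sdhb, the iron-sulfur subunit, was lower in each pool, with no overlap between the times, but did not pass (-0.17 ± 0.08, adjusted p = 0.16). The membrane anchors Sdhc and Sdhd differed by 0.07 and -0.06, so that the median of the complex was -0.11.

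Uqcrb, an accessory subunit of complex III, was measured near the limit of testing, at a mean log2 level of 5.71. It had 5.56, 5.84, 5.17 and 5.15 at 24 h, against 5.80, 6.36, 5.68 and 6.09 at 0 h, and was lower in each pool although the times overlapped (-0.55 ± 0.12, adjusted p = 0.020). A brighter probe set that names Uqcrb together with its copy Uqcrbl1 was left out of the fits: it was lower by 0.19, 0.17 and 0.16 in ethanol-fed AM21, ethanol-fed untreated and pair-fed untreated livers and higher by 0.27 in pair-fed AM21 livers. The probe sets therefore disagree, and the fall of Uqcrb as a gene is uncertain.

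Complex I, the largest complex with 32 tested subunits, had 0 subunits past the threshold in limma. An unadjusted p under 0.05 was found for 4 of its 32 subunits, against 3548 of all 8690 tested genes. The differences of the complex I subunits ran from -0.26 to 0.21, 17 of them above 0 and 15 below, with a median of 0.00. Ndufs7, which carries the last iron-sulfur cluster before coenzyme Q, was lower in all 4 pools without passing (-0.26 ± 0.08, adjusted p = 0.061). Its levels were 8.68, 8.71, 8.63 and 8.66 at 24 h, against 8.86, 8.99, 8.84 and 9.02 at 0 h, with no overlap between the times. The count of 0 depended on the setting. Ndufs7 passed as lower without the block (adjusted p = 0.039), and Ndufs7, Ndufa6 and Ndufc1 passed as lower with a level minimum of 7, with equal array medians and with an intensity trend, which added Ndufv3. The accessory subunits Ndufa6 and Ndufc1, chosen after their values were seen, differed by -0.26 and -0.23, also without passing. Ndufs1 and Ndufv1, core subunits on the electron path, differed by 0.21 and -0.18, and the accessory Ndufb8 by 0.05.

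Complex IV, cytochrome c oxidase, had 10 tested subunits, which differed by -0.05 to 0.19. In limma 0 of them passed, and 0 had an unadjusted p under 0.05. Cox5b had the highest of these differences (0.19 ± 0.08, adjusted p = 0.13) and was higher in all 4 pools. Cox4i1, Cox5a, Cox6a1, Cox8a and Ndufa4, which was once counted to complex I and is now placed in complex IV, differed by -0.05, 0.07, 0.03, 0.04 and -0.04. The 3 tested genes encoded by mitochondrial DNA, COX1, COX2 and COX3, are the core of this complex and also had 0 calls, with a median of -0.03.

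**Figure D3:**
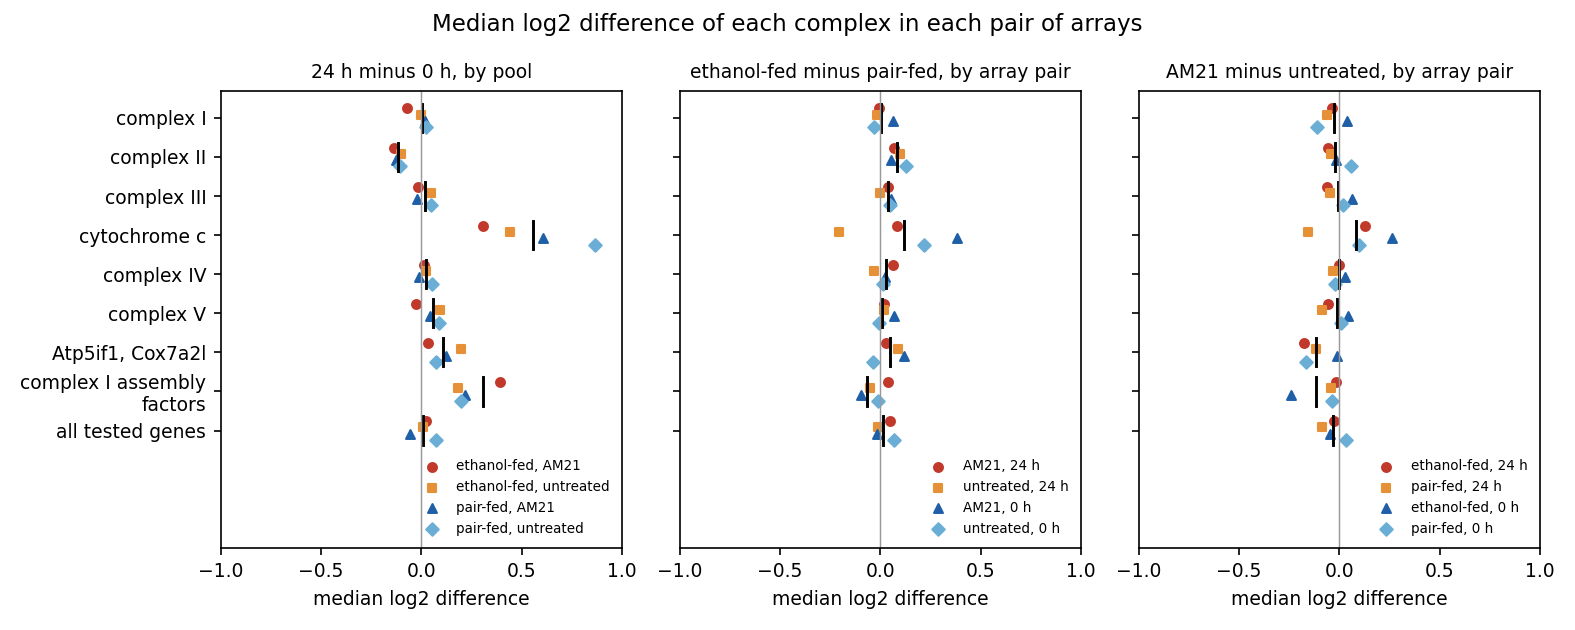
Median log2 difference (horizontal axis) over the tested members of each complex in each of 4 pairs of arrays (coloured symbols), for PHx by pool and for diet and AM21 by array pair; black bars are the medians of the fitted differences. Cytochrome c is a single gene. The median of complex II lies below 0 in all 4 pools after PHx, and that of the 8 complex I assembly factors above 0. Of these 8 factors, 6 had a fitted difference above 0 and 2 below.

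The intervals of most subunits that did not pass were narrow. Of the 62 subunits that did not pass, 61 had a 95% interval for the PHx change within 0.5 log2 units of 0, the exception being Atp5f1d, the delta subunit of the ATP synthase, whose interval reached 0.62. Over the 8 arrays the subunits had a median range (highest minus lowest) of 0.26 log2 units, against 0.62 over all tested genes and 0.55 over the 983 genes with a mean level of at least 9. The share past the PHx threshold was 7.46% of the subunits, 28.1% of all tested genes and 36.4% of those 983. Subunits that went the same way in all 4 pools made up 24 of 67 (35.8%), against 49.0% of all tested genes. Times that did not overlap were found for 7 subunits higher and 7 lower at 24 h (10.4% each), against 17.4% and 13.7% of all tested genes.

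Most of the calls depended on keeping all 4 pools. Without the ethanol-fed AM21, the ethanol-fed untreated or the pair-fed AM21 pool, 4 members passed in place of 9. Without the pair-fed untreated pool 6 passed. Over all tested genes, these fits called 1466 to 1705 in place of 2443, with 2 residual degrees of freedom in place of 3. Ndufaf5 and Ndufaf7 passed each time, while Cyc1, Atp5mk and Atp5if1 passed in none of the 4. Sdha lost its call without either ethanol-fed pool (adjusted p = 0.059 and 0.052), and Cycs without the pair-fed AM21 pool (adjusted p = 0.050). Uqcrb lost it without the pair-fed AM21 or the ethanol-fed untreated pool, and Ndufaf8 without either AM21 pool. Without the pair-fed AM21 pool Ndufaf4 passed as higher. With the arrays shifted to equal medians over the tested genes, 5 members rose and 5 fell, in place of 7 and 2. Atp5mk and Atp5if1 then no longer passed. Over all tested genes, the same shift gave 1164 higher and 1416 lower, in place of 1330 and 1113.

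Lists of other mitochondrial genes are given with their shares past the threshold, which over all tested genes were 15.3% higher and 12.8% lower. The list of 16 tested citric acid cycle genes had 3 that rose (18.8%) and 4 that fell (25%). Idh2 (0.57 ± 0.11), Dlst (0.47 ± 0.09) and Cs, the citrate synthase (0.38 ± 0.10), were higher. Of the 4 that fell only Pc is named here, the pyruvate carboxylase that feeds the cycle and gluconeogenesis. It fell by 1.21 ± 0.13 (limma, adjusted p = 0.0019). Among 12 genes of coenzyme Q synthesis 2 rose and 2 fell (16.7% each), near the shares over all tested genes, with the largest change in Coq8a (-1.17 ± 0.09, adjusted p = 0.0013). Of 6 tested carriers and porins 2 rose (33.3%) and 0 fell, namely Slc25a4, an ADP/ATP carrier (0.38 ± 0.11), and Slc25a3, the phosphate carrier (0.37 ± 0.09).

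The mitochondrial ribosome, which translates the mitochondrial DNA-encoded subunits, had 16 of 70 tested genes higher (22.9%) and 0 lower (median 0.19), led by Mrpl49 (0.78 ± 0.14). The TIM and TOM complexes, which import nuclear-encoded subunits, had 8 of 23 higher (34.8%) and 0 lower (median 0.21), led by Tomm40 (0.78 ± 0.15). Of 115 tested genes of the cytosolic ribosome prefix, 53 were higher (46.1%) and 0 lower (median 0.31). That list took all 203 genes of the prefix with a probe set and may hold pseudogenes, which were not set apart. Other assembly factors of complexes I to V had 4 of 30 higher, among them the copper chaperone Cox17 (0.29 ± 0.08), and 2 lower, among them Nubpl, an iron-sulfur factor of complex I (-0.52 ± 0.11). As shares, neither count was above that of all tested genes (15.3% and 12.8%), and the median change of these 30 genes was 0.03. No test set these lists against the subunits, and the difference between their counts was not tested.

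**Figure D4:**
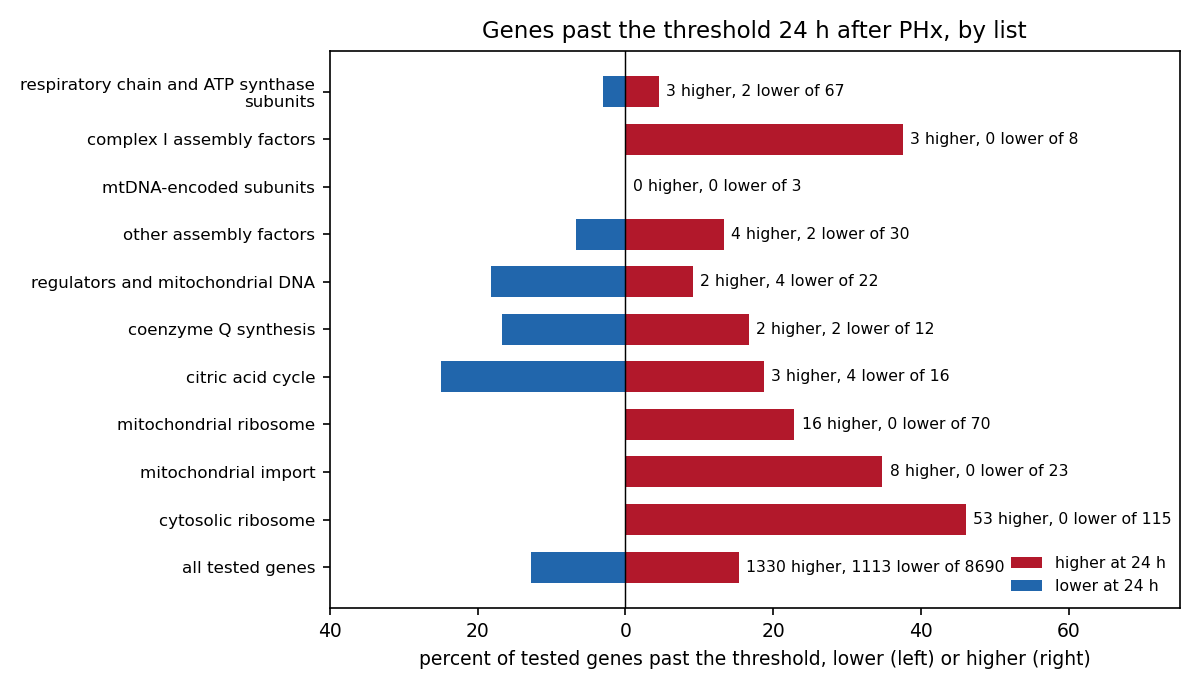
Percent of the tested genes of each list that passed the PHx test, with the counts beside the bars. Blue bars to the left are lower at 24 h and red bars to the right are higher at 24 h. The carriers and porins are not shown. The subunits have 3 higher and 2 lower of 67. The complex I assembly factors and the ribosome and import lists have genes past the threshold in 1 direction.

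The regulators of the chain and of mitochondrial DNA had 2 of 22 higher (9.09%) and 4 lower (18.2%), against 15.3% and 12.8% of all tested genes. Pprc1, a coactivator of the PGC-1 family, was higher (0.77 ± 0.15, adjusted p = 0.011), as was Tfb1m, a methyltransferase of mitochondrial ribosomal RNA (0.48 ± 0.11). Ppargc1b (-0.57 ± 0.12) was lower, as were Polg2, an accessory subunit of the mitochondrial DNA polymerase (-0.88 ± 0.20), Twnk, the helicase (-0.61 ± 0.18), and Dguok, a deoxyguanosine kinase of nucleotide salvage (-0.66 ± 0.13). Other cells of the liver also moved between the times: 3 of 4 sinusoidal endothelial markers and 3 of 5 stellate cell markers fell, and 2 of 2 tested neutrophil markers rose. Of 5 neutrophil markers in all, whose mean level was 4.71 to 5.64 at 24 h and 4.07 to 4.40 at 0 h, the defining granule genes Mpo and Elane were not tested. The mean of the 4 sinusoidal markers was 6.85 to 7.25 at 24 h and 7.26 to 7.80 at 0 h. The part of these shifts in the members' changes was not tested.

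The second comparison asked whether chronic ethanol feeding changed the chain, over both times and treatments. None of the 82 tested members passed (0 higher, 0 lower; limma, additive fit; lowest adjusted p = 0.22), and 3 had an unadjusted p under 0.05. Few of all tested genes passed, with 0.38% higher and 0.0806% lower in ethanol-fed than in pair-fed livers. In the same fit, 1335 of all 8690 tested genes had an unadjusted p under 0.05. The medians were 0.01 for complex I, 0.08 for complex II, 0.04 for complex III, 0.03 for complex IV and 0.01 for complex V, against 0.01 over all tested genes. Of the 67 subunits, 65 had a 95% interval within 0.5 log2 units of 0, the exceptions being Uqcrb and Atp5f1d.

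Sdhc, a membrane anchor of complex II, was higher in ethanol-fed livers in all 4 array pairs without passing (0.24 ± 0.09, adjusted p = 0.28). Its levels in ethanol-fed livers were 9.28 and 9.38 at 24 h and 9.38 and 9.38 at 0 h (AM21, then untreated), against 9.14 and 9.28 at 24 h and 9.09 and 8.95 at 0 h in pair-fed livers. The 2 diets overlapped at the level of 9.28. Uqcrb (0.37 ± 0.12, adjusted p = 0.22) and the assembly factor Ndufaf7 (0.32 ± 0.11, adjusted p = 0.24) had the smallest p-values and were also higher in all 4 pairs. Uqcrb was measured near the limit of testing, at a mean level of 5.71, and its brighter shared probe set was left out of the fits. Atp5f1b, the catalytic beta subunit, was the 1 member whose 4 ethanol-fed arrays all lay above the 4 pair-fed arrays, at a difference of 0.09 and an adjusted p of 0.64. Of all tested genes, 3.48% were higher in ethanol-fed livers with no overlap.

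Ndufa9 (0.16), Cox4i1 (0.08), Atp5f1d (0.28) and Atp5if1 (0.16) were higher and Ndufaf6 (-0.14) was lower in ethanol-fed livers in all 4 pairs, all without passing. Subunits that kept 1 direction in all 4 diet pairs made up 26.9%, against 24.0% of all tested genes. For Atp5f1d, 1 pair stood apart: the difference was 0.13 in AM21 and 0.12 in untreated livers at 24 h, and 0.16 in AM21 but 0.70 in untreated livers at 0 h. Among the surrounding mitochondrial lists, 0 genes passed for diet. Markers of Kupffer cells, the resident macrophages of the liver, did differ, with 2 of 7 higher: their mean level was 7.84 to 8.13 in ethanol-fed and 7.22 to 7.58 in pair-fed livers, and its part in the members' differences was not tested. Of the 2 brown fat markers, Ucp1 was not tested (mean level 2.73) and Cidea, a lipid droplet protein, was higher, at 6.32 to 7.12 in ethanol-fed and 5.46 to 5.81 in pair-fed livers (1.04 ± 0.16, adjusted p = 0.047).

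The third comparison asked whether AM21 changed the chain. Again 0 of 82 members passed (limma, lowest adjusted p = 0.80), with 1 at an unadjusted p under 0.05, and 0% of all tested genes passed in either direction (538 had an unadjusted p under 0.05). The median was -0.03 in complex I, -0.02 in complex II and -0.01 each in complexes III and V, and that of complex IV rounded to 0, against -0.03 over all tested genes. The member at an unadjusted p under 0.05 was Uqcrb (-0.31 ± 0.12), with the same limits of level and probe set as above. It was lower with AM21 in both ethanol-fed pairs and at 0 h in the pair-fed pair, and higher by 0.02 at 24 h in the pair-fed pair. Of the 67 subunits, 66 had a 95% interval within 0.5 log2 units of 0, with Uqcrb as the exception.

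In all 4 AM21 pairs 1 subunit was higher and 9 were lower, 14.9% of the 67 against 15.6% of all tested genes that kept 1 direction. The named 1 of each complex had small differences: Ndufs1 (-0.11), Sdha (-0.07), Uqcrh (-0.04), Cox5b (-0.17) and Atp5pb (-0.07) were lower without passing. Cox5b, the nearest of these to the threshold, had an adjusted p of 0.85. The copy Atp5mc1l2, at a mean level of 5.09, was higher by 0.22 without passing. Another copy, Atp5mc1l1 at a mean level of 7.89, chosen after its values were seen, differed by -0.22 and was lower in all 4 pairs, also without passing (adjusted p = 0.83).

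Finally, the response to PHx was compared between diets and between treatments, with the interaction terms of the pool-blocked fit. For diet, 0 of 82 members passed (limma, lowest adjusted p = 0.28), with 2 at an unadjusted p under 0.05. Of all tested genes, 0.069% had a more positive and 0.46% a more negative change in ethanol-fed livers. An unadjusted p under 0.05 was found for 943 of them. For AM21, 0 of 82 members passed (1 at an unadjusted p under 0.05; lowest adjusted p = 0.72), where 0% of all tested genes passed in either direction (604 at an unadjusted p under 0.05).

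The members with the smallest interaction p-values were Ndufaf4 and the copy Atp5mc1l2 for diet and Atp5f1d for AM21. Atp5f1d changed by -0.01 and 0.02 in the AM21 pools and by 0.22 and 0.81 in the untreated pools (ethanol-fed, then pair-fed). The change of 0.81 starts from 1 low array, the pair-fed untreated one at 0 h (8.54, against 9.12 to 9.46 on the other arrays). Ndufaf4 changed by 0.86 and 0.69 in the ethanol-fed pools and by -0.15 and 0.40 in the pair-fed pools (AM21, then untreated), an interaction of 0.65 ± 0.23 with an adjusted p of 0.35. Cycs rose by 0.31 and 0.44 in the ethanol-fed pools and by 0.61 and 0.86 in the pair-fed pools, an interaction of -0.36 ± 0.20 that did not pass (adjusted p = 0.59). These fits leave 1 residual degree of freedom, and 24 of 67 subunits for diet and 17 of 67 for AM21 had a 95% interval within 0.5 log2 units of 0, so that differences of that size were not excluded for the rest.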

How the data were processed

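The deposited values are log2 levels. The authors computed them with RMA in Affymetrix Expression Console, which the submitters' processing notes name without versions. RMA corrects background, summarises probes and normalises between arrays, so a change common to nearly every gene is lost. No detection calls were used, and a level under 5 was not shown to be above background. Arrays give no read depth; their number limits the precision.

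Per the platform table, 18511 of the 36685 probe sets name 1 symbol, 575 name several and 17599 are unnamed here; 18394 of the first were found in the GRCr8 RefSeq table, and 0 symbols were updated. The brightest probe set by its mean over the 8 arrays stood for a gene (6 members had several). A gene was tested where its mean was at least 5. The tests came from limma 3.58.1 (lmFit and eBayes, R 4.3.3) over all 8690 such genes, adjusted by Benjamini-Hochberg, and a gene passed at an adjusted p under 0.05. For PHx the pool was a fixed block, since the labels give the same animals at both times; the interactions kept that block. Diet and AM21 shared an additive fit with time. There duplicateCorrelation estimated -0.370 within pools, a negative value that was replaced by 0; the 8 arrays thus count as independent, though only 4 pools of animals were sampled. The fits were tested on simulated data.

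The members, lists and markers were chosen with earlier results of these data known; roles and complexes were set by hand from textbook knowledge. Genes were named by a rule: per comparison and complex, up to 3 rises and 3 falls with the smallest p past the threshold, or, where none passed, the 1 member with the largest smallest-pair change among those moving 1 way in all 4 pairs, plus a standing set of core subunits, isoforms and assembly factors. List genes were named by their largest changes. Alternatives covered the level filter, array medians, the intensity trend, probe set averaging, the block, and leaving out each pool or array.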

Additional observations from a re-analysis of the deposited data

Results flagged for a closer look

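Within 111 sets of 4 pair differences of the named members, 2 had 1 value far from the other 3 by Dixon's criterion, which chance meets in about 1 of 20 such sets. Atp5f1d, the delta subunit of the ATP synthase, was higher by 0.70 in ethanol-fed than in pair-fed untreated livers at 0 h, against 0.12 to 0.16 in the other 3 array pairs. Its pair-fed untreated array at 0 h stood at 8.54, against 9.12 to 9.46 on the other arrays, and enters its PHx, diet and AM21 values alike. Sdha was higher by 0.20 in ethanol-fed than in pair-fed AM21 livers at 24 h, against 0.07 in each of the other 3 pairs.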

How the results depend on the processing

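Members past the PHx threshold numbered 9, and 6 to 13 under the alternatives that kept all pools (6 with no level filter, 13 with an intensity trend). Leaving out 1 pool gave 4 to 6. Of 358 values of named members under the PHx alternatives, 25 lost and 6 gained the call and 0 called values changed sign; uncalled values changed sign in 10 of these, in 23 of 539 for diet and in 51 of 522 for AM21. Diet, AM21 and both interactions gave 0 members under every alternative run. With equal array medians the PHx medians of complexes I to V were -0.05, -0.17, -0.04, -0.03 and 0.01, and that of all tested genes was -0.05 (0.01 without that scaling). The random block gave the same fit as no block, since the negative correlation within pools was replaced by 0. That fit gave 10 members and is counted under both names above. Over all genes, calls ran from 1466 to 2702 for PHx (2443 reported), 0 to 285 for diet (40), 0 to 226 for its interaction (46), and up to 8 and 51 for AM21 and its interaction (0 each).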
